A study of Mus musculus with 11 samples.

Results

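The library of HIV integration sites led by SPT5 was set against the 6 libraries led by Integrator and SOSS subunits: INTS3, INTS9, INTS11, INIP, NABP1 and NABP2. These 7 of the 11 libraries were chosen by the name of the fused protein alone, and the NELF libraries were left out. All 7 came from mouse embryonic fibroblasts (MEF) of the strain C57BL/6 with the genotype LEDGF-/-. The cells received a plasmid for 1 protein fused to LEDGF-IBD, the integrase-binding domain of LEDGF, by electroporation. HIV infection followed 24 h later, and the cells grew for 3 more days before genomic DNA was taken. Each protein has 1 library, no library without a fused protein was analysed here, and the amount of fusion protein per cell is not given in the sources used here.

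LEDGF is the chromatin protein that normally tethers HIV integrase to transcribed genes. Without it, a chromatin protein that carries the integrase-binding domain can take over the tethering, so the density of proviruses serves as a trace of where that protein meets chromatin. SPT5 is a subunit of DSIF, a factor that travels with RNA polymerase II, takes part in the pause just downstream of gene starts and stays with the polymerase during elongation. Integrator binds paused polymerase and cleaves nascent RNA through INTS11, which pairs with INTS9. It forms the 3′ ends of the small nuclear RNAs of the spliceosome and ends transcription early at many protein-coding genes. The SOSS complexes are built on INTS3, hold INIP and carry 1 of the single-stranded DNA binding proteins NABP1 and NABP2.

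A site is a distinct combination of chromosome, position and strand. The libraries held 82038 sites for SPT5, 24907 for INIP, 33939 for INTS11, 96318 for INTS3, 197069 for INTS9, 188432 for NABP1 and 88204 for NABP2, or 710907 in all. Among these 7 libraries SPT5 was alone on its flow cell, so the protein and the flow cell cannot be told apart here. Values per gene are sites per 100000 sites of the library, in the annotated gene with 5 kb on each side. Densities are given as the fold over an even spread across the genome. Because each library is scaled to its own total, a larger share in one place leaves a smaller share elsewhere. Intervals cover counting error only, and p-values measure the spread between different fused subunits rather than between repeats of one. The cells' identity can be read only from DNA positions: SPT5 sites lay at 14.4-fold over uniform at 8 fibroblast genes, at 0.447-fold at 5 neuron genes and at 0.530-fold at 4 blood genes. At 4 hepatocyte genes it had 0 sites, which allows up to 3.66 sites per 100000. Of the fibroblast genes, Thy1 and Pdgfrb had 1.22 and 2.44 SPT5 sites per 100000, against 53.6 at Vim.

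The contrast between the libraries can be seen on the DNA itself. The first 3 sequences come from the 1 kb upstream of Mat2a, Pfn1 and Vim, genes with many more SPT5 sites than Integrator sites. Each is the 200-base stretch there with the most SPT5 sites among stretches that hold no annotated untranslated region. The fourth lies between a pair of U5 small nuclear RNA genes on the minus strand, downstream of 1 and upstream of the other. There the 6 Integrator and SOSS libraries together had 16 sites and SPT5 had 0. All are mm9 and read 5′ to 3′ on the strand of the gene. Capitals mark the recorded position of a site: of SPT5 sites in the first 3, and of sites of the 6 other libraries in the last. The first genomic base beyond the viral LTR may lie 1 base away, which was not tested.
Mat2a, chr6:72389594-72389793, minus strand: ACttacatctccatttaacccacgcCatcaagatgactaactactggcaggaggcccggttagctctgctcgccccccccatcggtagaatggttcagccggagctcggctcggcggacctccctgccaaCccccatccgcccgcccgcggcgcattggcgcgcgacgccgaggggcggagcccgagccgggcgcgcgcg
Pfn1, chr11:70468655-70468854, minus strand: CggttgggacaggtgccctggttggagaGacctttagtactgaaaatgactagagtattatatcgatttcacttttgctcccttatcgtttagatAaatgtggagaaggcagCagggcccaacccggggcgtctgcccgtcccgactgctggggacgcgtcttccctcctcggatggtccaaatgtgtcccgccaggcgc
Vim, chr2:13495063-13495262, plus strand: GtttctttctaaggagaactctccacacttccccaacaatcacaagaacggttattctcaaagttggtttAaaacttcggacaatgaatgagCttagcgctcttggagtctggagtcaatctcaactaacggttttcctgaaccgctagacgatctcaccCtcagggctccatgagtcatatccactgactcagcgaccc
U5, chr9:65047684-65047883, minus strand: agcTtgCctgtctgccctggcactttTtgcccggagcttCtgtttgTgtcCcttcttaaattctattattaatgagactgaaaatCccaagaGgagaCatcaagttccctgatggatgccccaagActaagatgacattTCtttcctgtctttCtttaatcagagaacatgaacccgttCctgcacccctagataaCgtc

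Each of the 3 stretches upstream of protein-coding genes held 4 SPT5 sites. In the stretch of Mat2a and in that of Pfn1 the 6 other libraries, with many more sites in all, had 0 sites, and in that of Vim they had 2. The U5 stretch begins 1650 bases past the 3′ end of the U5 gene at chr9:65049533-65049648, and 5 of the 6 libraries had at least 1 site in it. It was picked as the densest for the 6 libraries together, which hold many more sites than SPT5. The highest of the 6 had 4.53 per 100000 there, and a count of 0 allows up to 3.66 in SPT5. These stretches were picked for their sites and are shown as examples. A stretch upstream of Actb, picked in the same way as the first 3, is not shown. It had 4 SPT5 sites and 6 sites of the 6 other libraries. The highest of these libraries had 3.40 per 100000 there, against 4.88 in SPT5.

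SPT5 sites were concentrated at the starts of protein-coding genes far more than those of any Integrator or SOSS library. The first 1 kb of genes, which makes up 0.841% of the genome, held 14.3% of SPT5 sites (95% Clopper-Pearson interval 14.1 to 14.6). The share in the same zone was 2.32% for INIP, 3.62% for NABP2, 3.98% for INTS9, 4.07% for INTS3, 4.56% for INTS11 and 5.19% for NABP1. SPT5 therefore stood 2.76 times above the nearest library, while the 6 spanned a narrower range among themselves. The 1 kb upstream of starts gave 8.18% for SPT5 and 1.51% to 3.25% for the 6. With 1 library against 6 the exact two-sided permutation test cannot go below 0.143, which is the value for both zones (adjusted over the 9 zones, 0.321).

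Beyond this first stretch the difference shrank and then turned. From 1 to 5 kb downstream of starts SPT5 had 14.8% of its sites, between the 6.49% of INIP and the 15.9% of NABP2. From 1 to 5 kb upstream it had 4.97%, again within the range of the 6 (4.12% to 6.92%). The rest of the gene body, more than 5 kb from the start, held 27.2% of SPT5 sites (interval 26.9 to 27.5), below all 6 (37.1% to 43.4%). The share farther than 5 kb from any protein-coding gene was 25.1%, within the range of 24.4% for NABP2 to 41.03% for INIP.

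**Figure D1:**
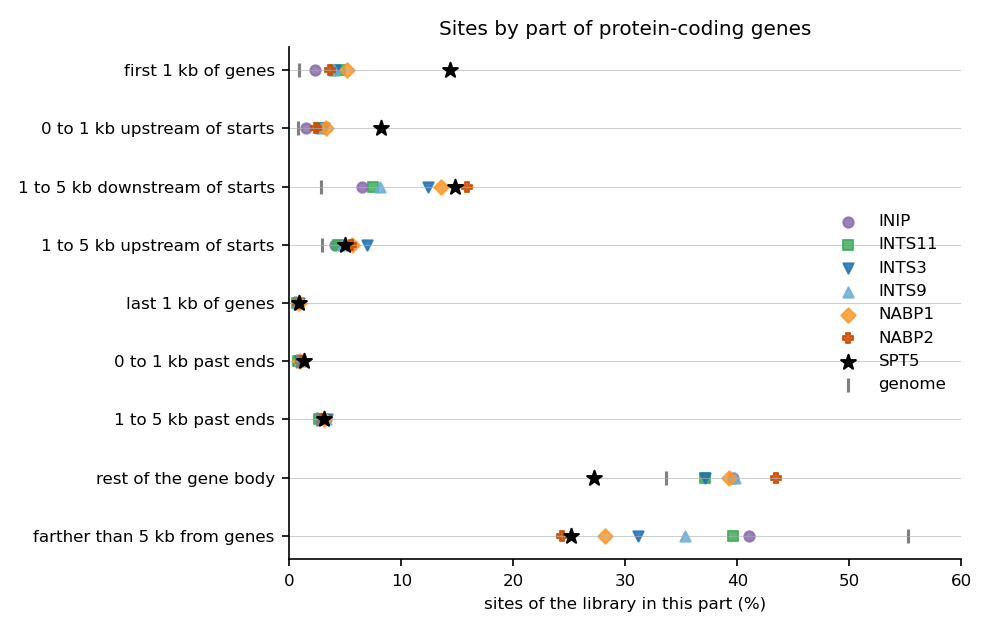
Share of each library's sites (x axis, percent) in 9 parts of protein-coding genes and their surroundings (y axis); stars are SPT5, other symbols are the 6 Integrator and SOSS libraries, and grey ticks are the share of the genome. SPT5 stands apart at 14.3% in the first 1 kb and at 27.2% in the rest of the gene body.

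Because the start zones take so many SPT5 sites, the rest of the library was also described on its own. Among the 47351 SPT5 sites outside the start zones, the gene body took 47.2%, inside the range of the 6 libraries (45.9% to 59.9%). Density in gene bodies over density far from genes was 1.78 for SPT5 and 1.54 to 2.92 for the 6. The body share of SPT5 sites that lay below all 6 over the whole library was thus within their range once sites near starts were set aside. Gene ends behaved otherwise: the last 1 kb of genes and the 5 kb past them held 9.32% of these SPT5 sites (interval 9.06 to 9.59) and 5.12% to 7.13% of those of the 6. Over the whole library the 1 kb just past gene ends held 1.35% of SPT5 sites and 0.790% to 1.02% of those of the 6. The last 1 kb of genes held 0.889% (interval 0.826 to 0.955), with 0.692% to 0.858% in the 6. From 1 to 5 kb past ends SPT5 had 3.14%, within the range of 2.66% to 3.39%.

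By exon and intron, SPT5 was above all 6 in coding exons, with 4.82% against 2.35% to 3.11%. It was also above them in untranslated or non-coding exons, with 8.49% against 2.96% to 4.28%. First introns held 21.1% of SPT5 sites, within the range of 14.1% to 29.3%, and other introns 25.2%, below the range of 29.6% to 31.9%. The exact permutation p was 0.143 for these 3 differences (adjusted 0.238). Proviruses in SPT5 cells lay on the strand of their host gene in 50.9% of cases (interval 50.4 to 51.3), and in 50.1% to 51.5% in the 6 libraries (exact permutation p = 0.857).

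Around starts the libraries also differed in shape. SPT5 density was highest in the 200 bases just downstream of the start, at 19.9-fold over uniform. In the same bin the 6 libraries had 2.27-fold (NABP2), 2.30-fold (INIP), 2.55-fold (INTS3), 3.82-fold (INTS9), 4.06-fold (INTS11) and 4.23-fold (NABP1). Each of the 6 reached its highest bin farther into the gene. INTS9 peaked at 400 to 600 bases (5.09-fold), NABP1 at 600 to 800 bases (7.10-fold) and NABP2 at 1400 to 1600 bases (6.45-fold). INIP, INTS11 and INTS3 peaked at 800 to 1000 bases, with 3.24-fold, 6.50-fold and 6.33-fold. All 6 had a dip in the 200 bases upstream of the start, with 1.56-fold to 3.45-fold. SPT5 was also lower there, at 14.8-fold, than in the bin before (15.5-fold) and the bin after (19.9-fold).

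SPT5 was above all 6 in 21 of the 50 bins within 5 kb of starts and below all 6 in 0. Around gene ends it was above all 6 in 50 of 50 bins, without a sharp peak. Its highest bin there, 600 to 800 bases past the end, had 3.92-fold, against highest bins of 1.97-fold to 2.67-fold in the 6. The ends of short genes lie close to starts, so the level around ends includes sites near starts.

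**Figure D2:**
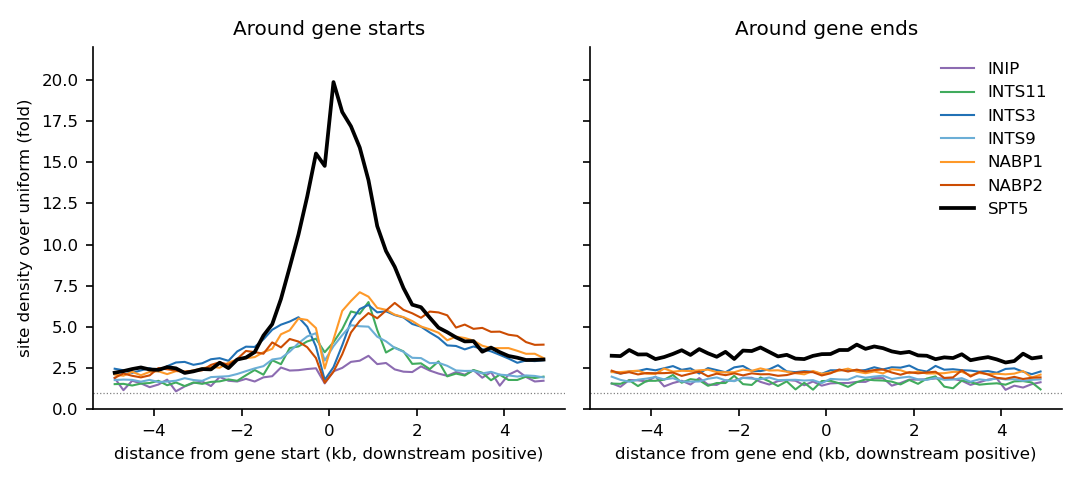
Site density over uniform (y axis, fold) in bins of 200 bases against the distance in kb from the starts (left) and ends (right) of protein-coding genes, 1 line per library. The SPT5 line peaks at 19.9-fold just downstream of starts, where the other lines are at 4.23-fold or less, and lies above them along the whole window around ends.

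SPT5 sites also reached more starts. When every library was thinned to 24907 sites, the size of INIP (mean of 10 draws), SPT5 had at least 1 site within 1 kb of 4062 starts. INIP reached 1007 starts, NABP2 1458, INTS9 1711, INTS3 1729, INTS11 1798 and NABP1 2000. At least 3 sites fell at 572 starts in SPT5 and at 6.00 to 53.7 starts in the 6.

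Starts rich in CpG dinucleotides, the feature of most housekeeping promoters, had the largest difference of 4 classes. Starts were divided into 4 classes of near-equal size by the CpG within 500 bases on either side, and density was taken within 1 kb. In the class with 70 to 180 CpG, SPT5 density was 30.1-fold over uniform and the 6 ranged from 3.62-fold to 9.54-fold. In the class with 0 to 12 CpG, SPT5 had 0.954-fold and the 6 had 0.714-fold to 0.925-fold. SPT5 was 4.12 times the median of the 6 in the first of these classes and 1.11 times in the last. Base composition moved with this: the mean GC content within 500 bases of a site was 47.6% in SPT5 and 43.5% to 44.9% in the 6, with 41.8% in the genome. SPT5 was above all 6 in GC content in 8 of the 9 parts, for example in the rest of the gene body with 44.5% against 43.2% to 43.95%. The exception was the part far from genes, with 42.4% within 41.2% to 42.6%, although CpG per 1 kb there was 9.24 in SPT5 against 7.41 to 8.56. How much the GC content of amplified fragments bears on the start preference was not tested.

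Gene length ordered the rest of the pattern. In genes of 5 to 20 kb the first 1 kb had 20.8-fold density in SPT5 and 3.32-fold to 7.15-fold in the 6. By 10 to 20 kb from the start the SPT5 density of these genes was 1.89-fold, inside the range of 1.39-fold to 2.18-fold. Genes of 100 to 300 kb showed a turn. Their first 1 kb had 13.1-fold in SPT5 against 1.81-fold to 6.24-fold, while the stretch from 20 to 50 kb had 0.782-fold against 1.20-fold to 1.58-fold. In every length class from 50 to 100 kb upward SPT5 was below all 6 in each stretch from 5 kb inward. In the genes of 300 kb and longer the first 1 kb was within the range of the 6.

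**Figure D3:**
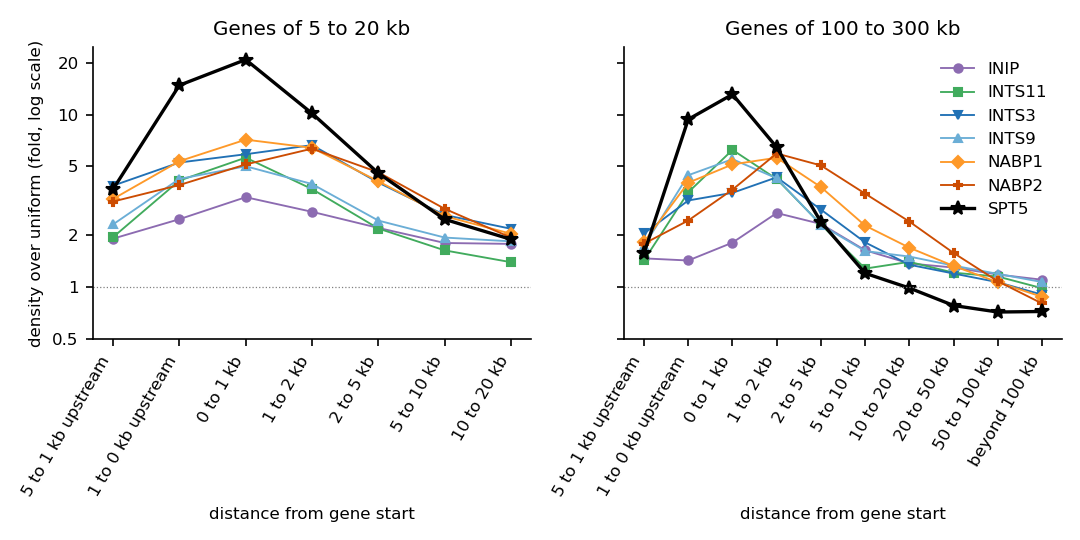
Site density over uniform (y axis, fold, log scale) by distance from the gene start (x axis) in protein-coding genes of 5 to 20 kb (left) and 100 to 300 kb (right), 1 line per library. In the longer genes the SPT5 line falls from 13.1-fold in the first 1 kb to 0.782-fold at 20 to 50 kb, below the 6 other lines.

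Gene by gene, the comparison took in 2249 genes, pseudogenes left out, whose sites averaged 10 or more over the 7 libraries. SPT5 was above all 6 libraries at 638 of them (28.4%) and below all 6 at 350 (15.6%). Windows of neighbouring genes overlap, and the genes fell into 399 and 336 separate loci. Beyond 2-fold of the nearest library there were 194 genes above (8.63%) and 50 below (2.22%). The filter used all 7 libraries, and 192 genes passed it through their SPT5 sites alone, of which 183 were above all 6. With the filter on the 6 libraries only, 455 genes were above and 406 below, and 89 lay beyond 2-fold above and 68 beyond 2-fold below. The balance turned without the 5 kb flanks, with 143 of 1343 genes above and 336 below, and after median centring, with 533 above and 572 below. Over the 28433 genes with at least 1 site, 6004 (21.1%) were above and 1211 (4.26%) were below all 6.

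No gene passed limma at an adjusted p of 0.05 in this design of 1 library against 6, in which the lone SPT5 library is assumed to vary like the others. At an unadjusted p under 0.05 there were 157 genes higher and 73 lower in SPT5. On simulated data for these 2249 genes the same fit recovered 4% of 50 genes raised 4-fold and 4% of 50 lowered to 0.25, so the absence of calls says little about single genes. The genes below are therefore named by their place outside the range of the 6.

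Genes above all 6 were short and genes below all 6 were long. The median length was 16.4 kb for those above, 179 kb for those below and 101 kb for those within the range. With the filter on the 6 libraries only, the medians were 17.9 kb, 168 kb and 96.9 kb. Among the protein-coding genes compared, 75.6% of the 156 genes under 5 kb were above all 6 and 0.641% were below. Of the 332 genes of 300 kb and longer, 2.11% were above and 25.9% were below. With all genes that had at least 1 site, the same classes gave 27.1% above and 0.423% below at the short end, and 4.36% above and 21.2% below at the long end. A fixed flank of 5 kb makes the start region a larger part of a short gene's window, which is built into these shares.

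**Figure D4:**
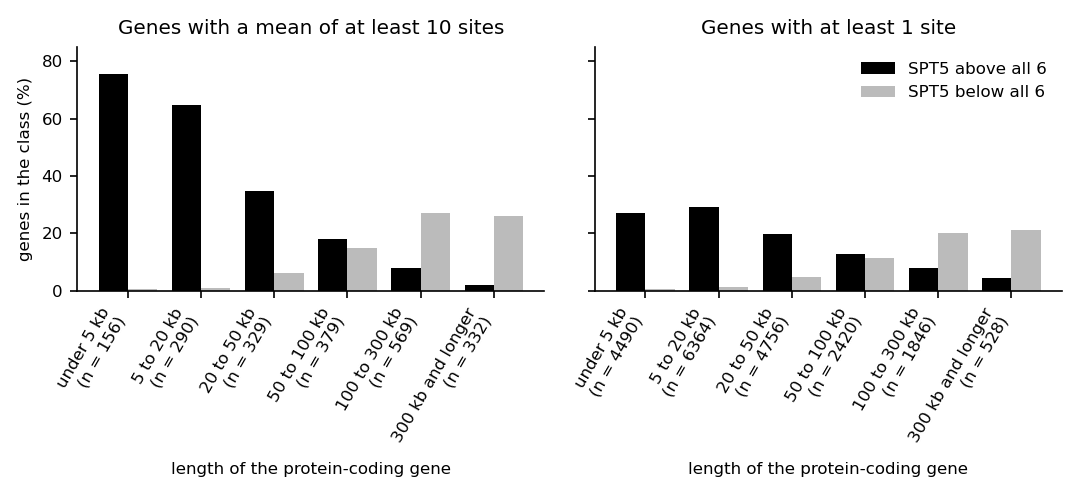
Share of protein-coding genes (y axis, percent) with SPT5 above all 6 (black) or below all 6 (grey) by gene length (x axis, number of genes in brackets), for genes that average 10 or more sites (left) and for genes with at least 1 site (right). The black bars fall from 75.6% to 2.11% on the left as genes get longer, and the grey bars rise.

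Of the 15 named genes above all 6, Mat2a, Rpl13a, Acta2, Pcbp4, Ier5 and Eef1a1 averaged fewer than 10 sites over the 6 libraries and were compared only because of their SPT5 sites. The windows of Rpl13a, Pfn1, Agrn and Znfx1 overlap those of other genes above all 6, and the sites cannot be credited to 1 gene of such a group. The gene farthest above the nearest library was Mat2a, which makes the methyl donor S-adenosylmethionine (chr6:72382793-72389552). It had 53.6 sites per 100000 in SPT5, from 44 sites. The 6 libraries had 5.89 in INTS11, 7.10 in INTS9, 8.03 in INIP, 8.31 in INTS3, 9.07 in NABP2 and 11.1 in NABP1. SPT5 stood apart from a tight group, at 4.81 times the nearest, with a log2 difference of 2.58 ± 0.567 (SE) and an adjusted p of 0.414 by limma. The ribosomal protein gene Rpl13a (chr7:52380928-52391787) had 46.3 in SPT5 and 3.04 to 10.4 in the 6.

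Some of the named genes encode cytoskeletal proteins. Pfn1, which encodes the actin-binding protein profilin (chr11:70465352-70468146), had 65.8 in SPT5 and between 3.04 in INTS9 and 15.9 in NABP1 in the others. Actb, the gene of cytoplasmic beta-actin (chr5:143664794-143668433), had 74.4 in SPT5, 0 in INIP, 6.09 in INTS9, 8.84 in INTS11, 15.9 in NABP1, 18.7 in INTS3 and 23.8 in NABP2. Flna, which encodes the actin crosslinker filamin A (chrX:71468800-71495159), had 75.6 in SPT5 and 8.03 to 24.4 in the 6. For these 3 genes the lowest and highest of the 6 lay far apart, yet SPT5 was at least 3.10 times the highest.

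Tpm1, the tropomyosin that lines actin filaments, had 63.4 in SPT5 and 2.95 to 18.7 in the 6. Vim, the intermediate filament protein vimentin (chr2:13495554-13504453), had 53.6 and 4.01 to 15.9. Acta2, smooth muscle actin, had 39.0 and 2.95 to 10.2. All 3 were outside the range in SPT5 by 3.38 times or more. The other 7 of the 15 were Dnaja1, Pcbp4, Agrn, Ier5, Eef1a1, Slc38a2 and Znfx1, with 36.6 to 49.98 sites per 100000 in SPT5. Dnaja1 encodes a heat shock co-chaperone, Eef1a1 a translation elongation factor and Slc38a2 an amino acid transporter. Adjusted p-values by limma ran from 0.414 to 0.591 over the 15 genes.

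At the other end stood Deptor, an inhibitor of the mTOR kinase (chr15:54943872-55090826, 147 kb long). It had 0 sites in SPT5 and 8.49 in NABP1, 12.5 in INTS3, 13.7 in INTS9, 14.7 in INTS11, 16.1 in INIP and 21.5 in NABP2. With counting error taken in both libraries, the lower limit of the ratio of NABP1, the lowest of the 6, to SPT5 was 1.68. Deptor was picked on these same values, and the limit makes no allowance for that choice. Its log2 difference was -3.91 ± 0.724 (SE), with an adjusted p of 0.264 by limma. Il34, a ligand of the macrophage growth factor receptor Csf1r, had 0 in SPT5 and 8.03 to 14.9 in the 6. Ythdf2, a reader of methylated mRNA, had 0 in SPT5 and 5.07 to 34.0 in the 6. For these genes the lower limits of the ratio of the lowest library to SPT5 were 0.619 and 0.933, so counting error alone allows no difference from that library. Edil3 also had 0 SPT5 sites, but the 2.27 of NABP2 lies under the 3.66 sites per 100000 that a count of 0 allows in SPT5, so no fold is given.

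The other named genes below all 6 had 1 to 4 SPT5 sites each and are uncertain in size. They too were picked on these values, and their counting intervals make no allowance for that choice. Mertk, a receptor kinase for apoptotic cells, had 1.22 sites per 100000 in SPT5 and 6.09 to 18.1 in the 6. The lowest of the 6, INTS9, was 4.9955 times SPT5 with a counting interval of 0.739 to 214. With the sites of the 6 libraries pooled the ratio was 9.13, with an interval of 1.59 to 366. Ambra1, an autophagy regulator 189 kb long (chr2:91570291-91759006), had 2.44 in SPT5 and 8.03 to 20.6 in the 6, with a pooled ratio of 5.48 (interval 1.47 to 45.98). The 9 others, Chchd3, Mkln1, Gm11476, Ptgfrn, Col24a1, Anks1, Hsd17b12, Sh3kbp1 and a U1 gene described below, had 1.22 to 4.88 in SPT5.

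**Figure D5:**
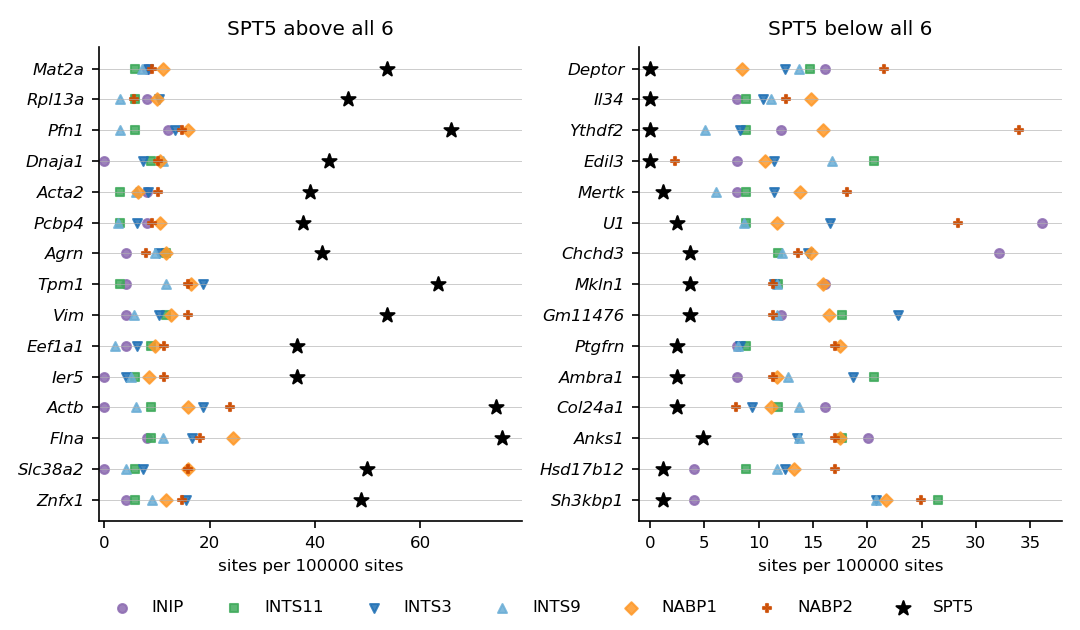
Sites per 100000 sites (x axis) at the 15 named genes above all 6 (left) and the 15 below all 6 (right); stars are SPT5 and other symbols are the 6 Integrator and SOSS libraries. Stars lie far from a cluster of other symbols on the left, for example Mat2a at 53.6 against 11.1 or less, and near 0 on the right.

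Gene lists were counted over members with a site, beside 21.1% above all 6 and 4.26% below over all genes with a site. The lists differ in gene length as well as in function. Median length was 0.53 kb for replication-dependent histones, 3.23 kb for cytosolic ribosomal proteins and 84.1 kb for chromatin regulators. How far length sets the place of a list was not tested. Genes for cytosolic ribosomal proteins were above all 6 at 70 of the 84 members with a site and below at 0. Their summed density was 22.9-fold in SPT5 and 4.15-fold to 8.42-fold in the 6. The median log2 difference over the members was 1.70, against -0.10 over all genes with a site. Rps2, a protein of the small subunit, had 51.2 sites per 100000 in SPT5 and 2.95 to 25.5 in the 6. Genes for translation factors and nucleolar proteins were above at 18 of 27, with 21.1-fold density in SPT5 and 4.78-fold to 11.2-fold in the 6. Nop56, a core protein of box C/D snoRNA particles, had 46.3 in SPT5 and 4.01 to 15.6 in the 6.

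Host genes of snoRNAs, whose introns carry the guide RNAs of ribosomal RNA modification, had a still higher density. It was 47.4-fold in SPT5 and 4.11-fold to 14.3-fold in the 6, and 9 of the 10 hosts were above all 6. Gas5 had 31.7 sites per 100000 in SPT5 and 2.27 to 5.89 in the 6, and Snhg1 had 41.4 and 4.01 to 12.7. The exception was Snhg11, with 0 in SPT5 and 0 to 2.95 in the 6. Of the 1115 snoRNA genes with a site, 276 (24.8%) were above all 6, near the 21.1% of all genes with a site. Of the 42 snoRNA genes that passed the filter, which counts SPT5 sites too, 35 were above, beside 28.4% of all genes compared. The snoRNA genes compared lie inside such hosts, so they repeat the same sites.

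Genes that respond within minutes to growth factors or stress were also above. Among immediate early genes 23 of 33 were above all 6 and 1, Mafk, was below, with 29.9-fold density in SPT5 and 4.81-fold to 15.02-fold in the 6. Zfp36, whose product destabilises cytokine mRNAs, had 52.4 sites per 100000 in SPT5 and 2.95 to 19.7 in the 6. Heat shock and chaperone genes were above at 17 of 28 and below at 0, with 19.7-fold and 4.07-fold to 10.9-fold. Calr, the chaperone calreticulin, had 49.98 in SPT5 and 5.58 to 26.99 in the 6.

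Replication-dependent histone genes, whose mRNAs end in a stem-loop instead of a poly(A) tail, were above at 46 of 64. Among protein-coding genes under 5 kb with a site the share was 27.1%. Of the histone genes that averaged 10 or more sites, 29 of 37 were above, beside 75.6% of such protein-coding genes under 5 kb. Their density was 35.5-fold in SPT5, next to 4.54-fold in INIP and 22.8-fold in the highest of the 6. The genes of 1 cluster share windows, so their members are not independent. Genes of SR proteins and hnRNPs, which steer splicing, were above at 22 of 43, with 18.5-fold in SPT5 and 3.74-fold to 14.5-fold in the 6. Srsf2 had 58.5 sites per 100000 in SPT5 and 4.01 to 22.8 in the 6.

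Actin cytoskeleton genes were above at 22 of 36 and below at 3, among them Mprip and Cald1. Their density of 10.9-fold was close to the 9.76-fold of the highest library. Collagen and matrix genes were above at 12 of 29, with 5.21-fold and 1.86-fold to 4.63-fold. Col1a1, the main chain of type I collagen, had 37.8 sites per 100000 in SPT5 and 2.95 to 12.7 in the 6. Hox genes, which set position along the body axis, were above at 9 of 39, a share near the 21.1% of all genes, although their summed density was 6.91-fold against 1.13-fold to 3.14-fold.

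Some lists did not stand apart. Genes that control pausing and elongation were above at 6 of 30 and below at 4, with 3.91-fold density inside the range of 2.32-fold to 5.13-fold. Polr2a, the largest subunit of RNA polymerase II, had 34.1 sites per 100000 in SPT5, between 8.03 in INIP and 55.6 in NABP2. Hexim1, an inhibitor of the elongation kinase P-TEFb, had 31.7 in SPT5 and 0 to 11.7 in the 6. Cdc73, Mllt1 and Mllt3, which act in elongation complexes, were among the members below. Mllt3 had 6.09 in SPT5 and 11.8 to 24.1 in the 6. The gene of SPT5 itself, Supt5h, had 4.88 in SPT5, within 2.95 to 12.5.

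Chromatin regulator genes were above at 4 of 32 and below at 3, with 4.50-fold inside 2.77-fold to 6.32-fold. Of protein-coding genes of 50 to 100 kb with a site, 12.9% were above and 11.4% below. Brd2 had 57.3 sites per 100000 in SPT5 and from 12.0 in INIP to 85.03 in NABP2. The genes of the Integrator and SOSS subunits were above at 5 of 15, with 5.12-fold density against 1.12-fold to 3.38-fold. Among them was Obfc2a, which encodes NABP1, with 30.5 in SPT5 and 0 to 8.31 in the 6. The nuclear RNAs Neat1 and Malat1 were among the densest loci of every library. Neat1 had 113 in SPT5 and 18.3 to 91.8 in the 6, and Malat1 had 71.9, below the 90.7 of NABP2. Genes of at least 500 kb were above at 3 of 200 and below at 42, and their density of 0.534-fold was inside the range of 0.533-fold to 0.818-fold.

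The small nuclear RNA genes named U1, U2, U4 and U5 made an exception among short genes, found after the values were seen. Their 20 compared models, of polymerase II transcripts that Integrator processes, were above all 6 at 0 and below all 6 at 8. The shares over all genes compared were 28.4% and 15.6%. Their windows overlap, so the 20 models are 14 loci and the 8 are 6. The 7 compared models of U6, which polymerase III transcribes, were above at 3 and below at 1. The U12 model was above all 6, with 20.7 sites per 100000 in SPT5 against 3.55 to 19.1. The U11 model was within the range, with 25.6 in SPT5 and 7.61 to 44.2 in the 6. All 32 small nuclear RNA models compared were above at 4 and below at 11. Copies of these genes are near-identical and reads may be split between them, although most sites lie in the flanks. The filter also favours loci rich in sites of the 6 libraries. At the U5 gene at chr9:65044379-65044494 SPT5 had 10.97 sites per 100000. INTS9 had 14.2, NABP1 21.2, INTS3 28.0, NABP2 44.2, INIP 84.3 and INTS11 88.4. The U1 gene at chr3:96132348-96132513 had 2.44 in SPT5 and from 8.63 in INTS9 to 36.1 in INIP. The lowest of the 6 was 3.54 times SPT5, with a counting interval of 0.840 to 31.6.

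The 2 sides of these genes were also counted without any filter, and no difference between the sides was tested. Neighbouring models share sites, so a site can be downstream of 1 model and upstream of another. Over the 10 annotated U5 models, the 5 kb downstream had 14.95-fold density in SPT5, from 24 sites (95% exact Poisson interval 9.58 to 22.3). The 6 libraries had 15.6-fold in INTS9, 33.97-fold in INTS3, 41.2-fold in NABP1, 63.3-fold in INTS11, 64.9-fold in NABP2 and 69.8-fold in INIP. In the 5 kb upstream SPT5 had 11.8-fold, within 10.1-fold to 34.6-fold. U2 models gave 5.08-fold downstream in SPT5 against 6.04-fold to 20.4-fold, and 3.79-fold upstream within 0.402-fold to 5.20-fold. U1 and U4 models were below all 6 downstream as well, with 1.66-fold against 2.38-fold to 4.97-fold and 3.10-fold against 3.26-fold to 7.50-fold. INTS9 was the lowest of the 6 in these 4 cases, and its value lay inside the counting interval of SPT5 for U5, U2 (3.65 to 6.90) and U4 (1.92 to 4.74) but not for U1 (1.25 to 2.16). Upstream, U1 models had 2.28-fold in SPT5, within 2.15-fold to 3.82-fold. U4 models were above all 6 upstream, with 2.36-fold from 16 sites (interval 1.35 to 3.84) against 1.79-fold to 2.14-fold. Over whole windows, U1 was below all 6, with 1.69-fold against 2.0032-fold to 3.46-fold. U2, U4 and U5 were within the range there, with 4.26-fold, 2.71-fold and 12.5-fold, beside 4.25-fold, 2.497-fold and 11.3-fold in INTS9, the lowest. U6 models had 1.44-fold downstream in SPT5, within 1.24-fold to 1.85-fold.

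Single positions were rarely shared. Of the SPT5 sites, 55 were also in INIP and 304 in NABP1, the fewest and the most, or 0.0670% and 0.371% of SPT5 sites. At shifts of 6 to 10 bases the mean number shared was 2.10 for INIP and 30.2 for NABP1. The source of the exact matches was not tested. The base at the recorded position was G at 36.1% of SPT5 sites, within the 29.8% of INIP and the 41.4% of INTS3. Whether this position is the first genomic base beyond the LTR on both strands was not tested.

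Runs of the same protein allow a partial look at the instrument. The share of sites within 1 kb of starts was 22.5% in SPT5, which was sequenced on a HiSeq. In the HiSeq runs of the other proteins it was 6.95% for INTS9, 8.84% for NABP1 and 6.19% for NABP2. Other runs of these proteins gave 5.64% for INTS9, 7.94% and 8.47% for NABP1 and 5.35% for NABP2. Over all runs of the 6 libraries the share was 3.82% (INIP) to 8.84%.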

How the data were processed

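The deposited files are neither counts nor signal: what they hold, per the file headers, is a list of genome positions with strand. The build is mm9 according to the submitters' processing notes, and no aligner is named in the sources used here. The unit named other covers these positions as deposited. Junctions came from linker-mediated nested PCR, per the labels' protocols, and the 750038 entries of the 7 libraries were collapsed to 710907 sites. Genes came from an mm9 annotation that lists 37252 genes (22350 protein-coding ones, and 32044 without pseudogenes). Of INTS9, NABP1 and NABP2, repeat runs were counted as 1 library.

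Genes with 5 kb flanks and a mean of at least 10 sites entered limma 3.58.1 (trend and robust) in R 4.3.3, on log2 of sites per 100000 plus a pseudocount of 1, with Benjamini-Hochberg adjustment over all genes tested. Fold changes on this scale understate those of low genes. Shares carry exact Clopper-Pearson intervals at 95%, and parts were tested with exact two-sided permutation over the 7 assignments. Counting was done in Python 3.11.15 with scipy 1.17.1. The fit was tested on simulated data. At 1 site the rate is 1.22 per 100000 in SPT5, 4.01 in INIP and 0.507 in INTS9, so INIP and INTS11 are the least precise.

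Named genes were the first 15 above and the first 15 below, ranked by the log2 ratio to the nearest library, 1 per chain of overlapping windows, and of each list at most 2 tested members, those with most SPT5 sites. Ties were ordered by gene identifier. Genes on chromosome 18 were passed over, a few genes are not reported here, and other genes named were chosen after their values were seen. The genes compared, the lists and the tests were chosen with earlier results of these data known. Lists of YAP and serum response, p53 and DNA damage, and cell cycle genes were also counted (9 of 15, 9 of 14 and 8 of 12 members above all 6), and olfactory receptors were above at 103 of 674. Alternatives were the pseudocount, the filter, the flank, median centring, thinning, all entries, merged or better covered sites, each of the 6 libraries left out and, added after seeing the data, sites far from starts and HiSeq runs.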

Additional observations from a re-analysis of the deposited data

Results flagged for a closer look

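Among the 73 values of gene parts, lists and named genes, 4 had 1 of the 6 Integrator and SOSS libraries far from the other 5 by Dixon's criterion, which chance meets in about 1 of 20 groups. INIP had 0 sites per 100000 at Dnaja1, where the others had 7.27 to 11.2. NABP2 had 34.0 at Ythdf2, where the next highest, NABP1, had 15.9. INIP had 32.1 at Chchd3, from 8 sites, where the others had 11.8 to 14.9. INIP had 4.01 at Sh3kbp1, from 1 site, where the others had 20.8 to 26.5.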

How the results depend on the processing

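No paired analysis was possible because each protein has 1 library. limma passed 0 genes except without the filter, where 1 gene, Deptor, passed as lower. Genes above all 6 numbered 638, and 64 with a mean of at least 20 sites, 6004 without the filter, 143 without the flank, 5 when thinned and 111 with sites far from starts only. Genes below numbered 350, and 72, 1211, 4 and 190 under the first 2, the thinned and the last of these, and 572 after median centring. HiSeq runs exist beside SPT5 only for INTS9, NABP1 and NABP2, and 856 of 2805 genes were below all of these. Median centring gave 533 above. Beyond 2-fold above, 194 became 11, 1946, 28, 0 and 14 in the order given first, 89 with the filter on the 6 libraries and 327 with HiSeq runs. Beyond 2-fold below, 50 became 5, 436 and 0 (higher filter, no filter, thinned), 122 after median centring and 196 with HiSeq runs. Fewer genes were compared with thinning (32) and the higher filter (380). With HiSeq runs fewer libraries set the range, so more genes can fall outside it. For the other changes the cause was not tested. With 1 of the 6 libraries left out, genes above ranged from 452 to 840, below from 282 to 577, beyond 2-fold above from 154 to 258 and beyond 2-fold below from 32 (without NABP1) to 111 (without INTS11). Without INIP genes below numbered 577 and without INTS11 530. Of the parts, 2 differences near 0 changed sign: 1 to 5 kb past ends was -0.45 percentage points with all genes that are not pseudogenes and ranged from -0.0498 (without INTS11) to 0.0958 with 1 library left out, and 1 to 5 kb upstream ranged from -0.478 to 0.0838 (without INTS3). Without the flank the log2 ratio to the mean of the 6 also changed sign at olfactory receptors (0.30), at pausing and elongation genes (from 0.20 to -0.069) and at chromatin regulators (from 0.15 to -0.15). The other parts and lists kept their direction under the alternatives run for them. Depth limits single genes: 1 site in INIP is 4.01 per 100000.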
